A study of Mus musculus with 18 samples.

Results

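Described here are 29 mouse genes of cholesterol synthesis, uptake and efflux, of the control of SREBP and of fatty acid synthesis, in B cells given the cytokine BAFF. The genes were taken by name, from a list drawn up with earlier results of these data known, and each symbol matched 1 of the 35275 gene IDs of the expression table. They comprise 18 enzymes of sterol synthesis, 5 genes of SREBP control and sterol transport, 3 targets of LXR and 3 genes of fatty acid synthesis. All 29 exceeded the mean of 1 FPKM over all libraries that was required for testing, as did 11646 genes in all. FPKM scales the fragments of a gene by its length and by the size of the library, so levels can be set side by side between genes.

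The RNA came from pan B cells of the spleen of C57BL/6 mice, for which the labels name no further allele. Every library had a pretreatment of 1 h at 1000 ng/ml, either with a control antibody or with mBaffR-mFc, a BAFF receptor fusion protein that blocks the part of BAFF by which it binds BR3. The cells then received 100 ng/ml of BAFF 3mer, 100 ng/ml of BAFF 60mer or no BAFF for 4 h. The 6 groups of 3 libraries are Ab, Ab_3mer and Ab_60mer after control antibody and BRFc, BRFc_3mer and BRFc_60mer after mBaffR-mFc, which leaves no group without a pretreatment. Replicates are numbered here in the order of deposition, and the labels do not say whether equal numbers belong together. No fit took these numbers as a term. The labels do not say whether the replicates of a group came from separate animals. The spread behind each p-value, that between the libraries, may be technical.

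Cells make cholesterol from acetyl-CoA through the mevalonate pathway, squalene and lanosterol. When sterol in the endoplasmic reticulum runs low, Scap carries the SREBP precursors away from their anchor Insig1 to be cleaved, and the released factors turn on genes of sterol and fatty acid synthesis. When sterol is in excess, oxysterols activate the nuclear receptor LXR, which turns on efflux pumps and Mylip, a ubiquitin ligase that lowers lipoprotein uptake. B cells entering growth are known to draw on both sterol and fatty acid synthesis for new membrane, and BAFF is known as their survival factor.

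The B cell markers were abundant throughout: Cd79a, Cd79b, Ms4a1, Cd22 and Pax5 together reached 2025 to 2349 FPKM in every library. Their sum was lower in the 6 libraries with the BAFF 60mer (2025 to 2130) than in the 12 others (2153 to 2349), without overlap, so it moved with the same libraries as the sterol genes described below, and its part in those differences was not tested. Depth recovered from the steps between low values was 12.2 to 25.4 M fragments, and it was 12.2 to 17.4 in Ab_60mer beside 15.7 to 21.9 in Ab and 18.95 to 21.7 in Ab_3mer. One feature set libraries apart, and it followed the groups except within Ab_3mer. Transcripts of connective tissue (Col1a1, Col1a2, Col3a1, Sparc, Dcn and Bgn) summed to 8.14 to 12.9 FPKM in 8 libraries and to at most 0.131 in the other 10. The 8 were Ab_3mer replicates 1 and 2 and all of Ab_60mer and BRFc_60mer. Adipocyte markers (Adipoq, Plin1, Cidec, Fabp4, Cfd and Lep), of interest here since fat cells make lipid, summed to 10.8 to 15.9 FPKM in the same 8 and to 5.40 to 10.4 in the other 10, with Plin1 listed at 0 in all 10. Most of that sum was Fabp4, at 8.66 to 13.7 FPKM in the 8 and 5.31 to 10.1 in the other 10. Fabp4 and Lep overlapped between these sets, while Adipoq, Plin1, Cidec and Cfd did not. The medians were 0.577 and 0.021 FPKM for Adipoq and 1.496 and 0.055 for Cfd. Macrophage markers, with Lyz2 as the most abundant, overlapped at 140.1 to 161 FPKM in the 8 and 149 to 166 in the other 10. T cell markers overlapped too, and their sum was mostly Lck. Every comparison of the 60mer with no BAFF, and of BRFc_60mer with BRFc_3mer, lies wholly across this split, so in those the split and the BAFF 60mer cannot be told apart. In bulk RNA, fewer cells of a type and less RNA per cell cannot be told apart either.

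The promoters of these genes are shown first, since SREBP is known to act beside factors that bind the CCAAT box. Of the 29 genes, 23 had a window in the RefSeq promoter table (GRCm38.p6), which runs from 250 bases before the start base to the 50 bases that begin with it. In the sequences below, capitals mark CCAAT or its complement ATTGG and, in Hmgcs1, the sterol regulatory element core TCACNCCAC. The first 4 genes are shown upstream of the start, free of any exon in GENCODE M21. They are, with Tm7sf2 further down, the genes that passed a test after control antibody.
Hmgcs1 (chr13:119690201-119690350, plus strand): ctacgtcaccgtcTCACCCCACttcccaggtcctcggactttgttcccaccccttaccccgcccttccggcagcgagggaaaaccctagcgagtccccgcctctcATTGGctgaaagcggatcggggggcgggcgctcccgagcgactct
Fasn (chr11:120824548-120824697, minus strand): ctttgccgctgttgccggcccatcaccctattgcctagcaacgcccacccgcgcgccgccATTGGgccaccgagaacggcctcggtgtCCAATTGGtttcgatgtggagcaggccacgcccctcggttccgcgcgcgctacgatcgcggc
Mylip (chr13:45389592-45389741, plus strand): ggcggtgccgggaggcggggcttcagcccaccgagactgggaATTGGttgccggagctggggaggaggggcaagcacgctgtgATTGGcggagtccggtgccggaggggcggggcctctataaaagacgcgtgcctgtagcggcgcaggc
Lss (chr10:76531455-76531587, plus strand): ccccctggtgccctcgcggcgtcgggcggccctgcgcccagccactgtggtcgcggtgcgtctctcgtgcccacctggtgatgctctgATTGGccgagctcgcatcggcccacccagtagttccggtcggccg

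For 4 more genes that passed a test, only the 25 bases around 1 CCAAT box are shown, because the box lies in an annotated exon of GENCODE M21 although it is upstream of the RefSeq start.
Cyp51 (chr5:4104712-4104736, minus strand): ctgtccgccaCCAATctggtcctga
Idi1 (chr13:8885551-8885575, plus strand): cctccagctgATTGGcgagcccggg
Msmo1 (chr8:64733619-64733643, minus strand): gtggggcggaCCAATtacgacaggc
Tm7sf2 (chr19:6067883-6067907, minus strand): cccagcgctgATTGGctactgtgct

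A CCAAT box on either strand was found in the 300-base windows of 20 of the 23 genes (87.0%). It was found in 41.06% of all 27025 genes of the table and in 43.14% of the 8639 that were also tested for expression. In Fasn a CCAAT and an ATTGG overlap, so that their capitals run together. Fasn and Hmgcs1 had the box, and so did Mylip and Tm7sf2, whose levels moved the other way. With the box in 20 of 23 genes, a relation to the direction of change could not have shown. The core TCACNCCAC was in Hmgcs1 alone (4.3% of the 23, against 1.44% of all genes), and its 9 letters share none with a CCAAT box. The palindromic E-box TCACGTGA, which SREBP can also bind, was in none of the 23 and in 1.12% of all genes. The DR4 element by which LXR is known to bind was in none of the 23 and in 0.01% of all genes. These counts describe letters in a window, not binding.

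**Figure D1:**
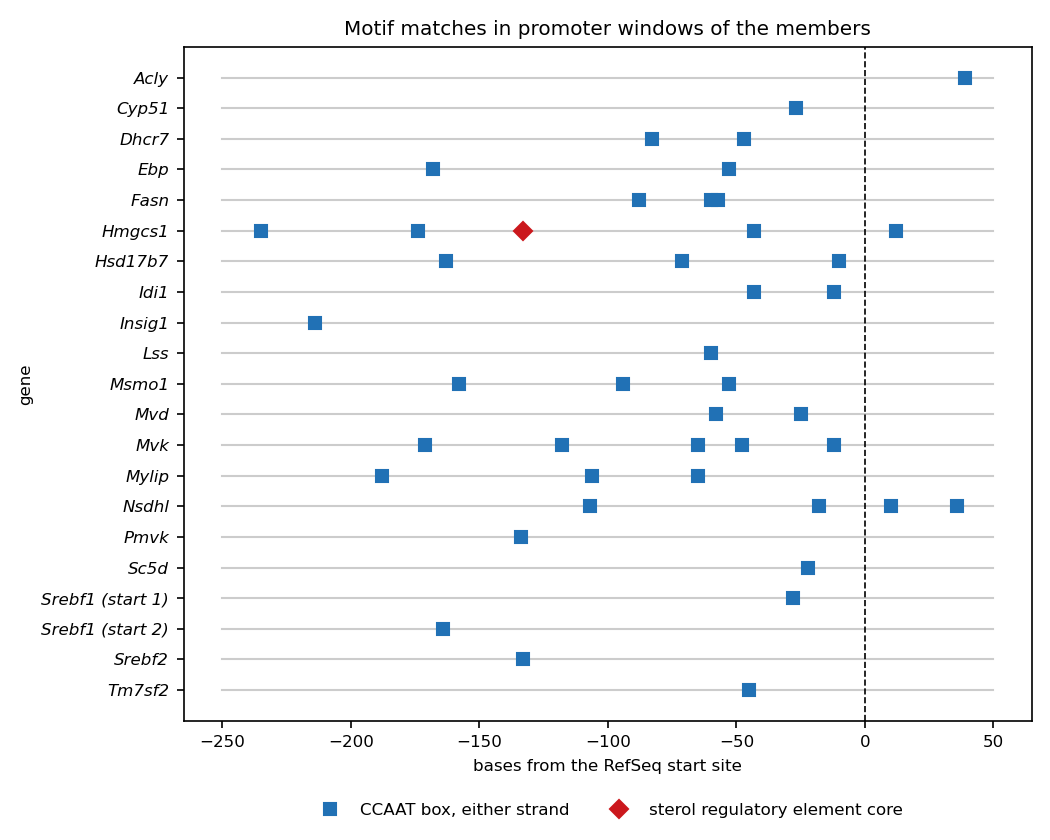
Position of motif matches in the promoter windows of the genes that had any, in bases from the RefSeq start (x axis), with 1 line per window and 1 mark per match. CCAAT boxes (squares) lie in 20 of 23 genes, and the only sterol regulatory element core (diamond) lies in Hmgcs1.

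Over the 18 libraries the mean levels of the 29 genes ran from 7.95 FPKM for Tm7sf2, a sterol reductase, to 153 FPKM for Acly, which supplies acetyl-CoA from citrate. Differences between groups were small throughout. The highest group mean was at most 1.39 times the lowest (Tm7sf2) and as little as 1.05 times for Srebf2, while the SD within groups was 3.57% of the mean for Acly and up to 9.55% for Mylip.

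**Figure D2:**
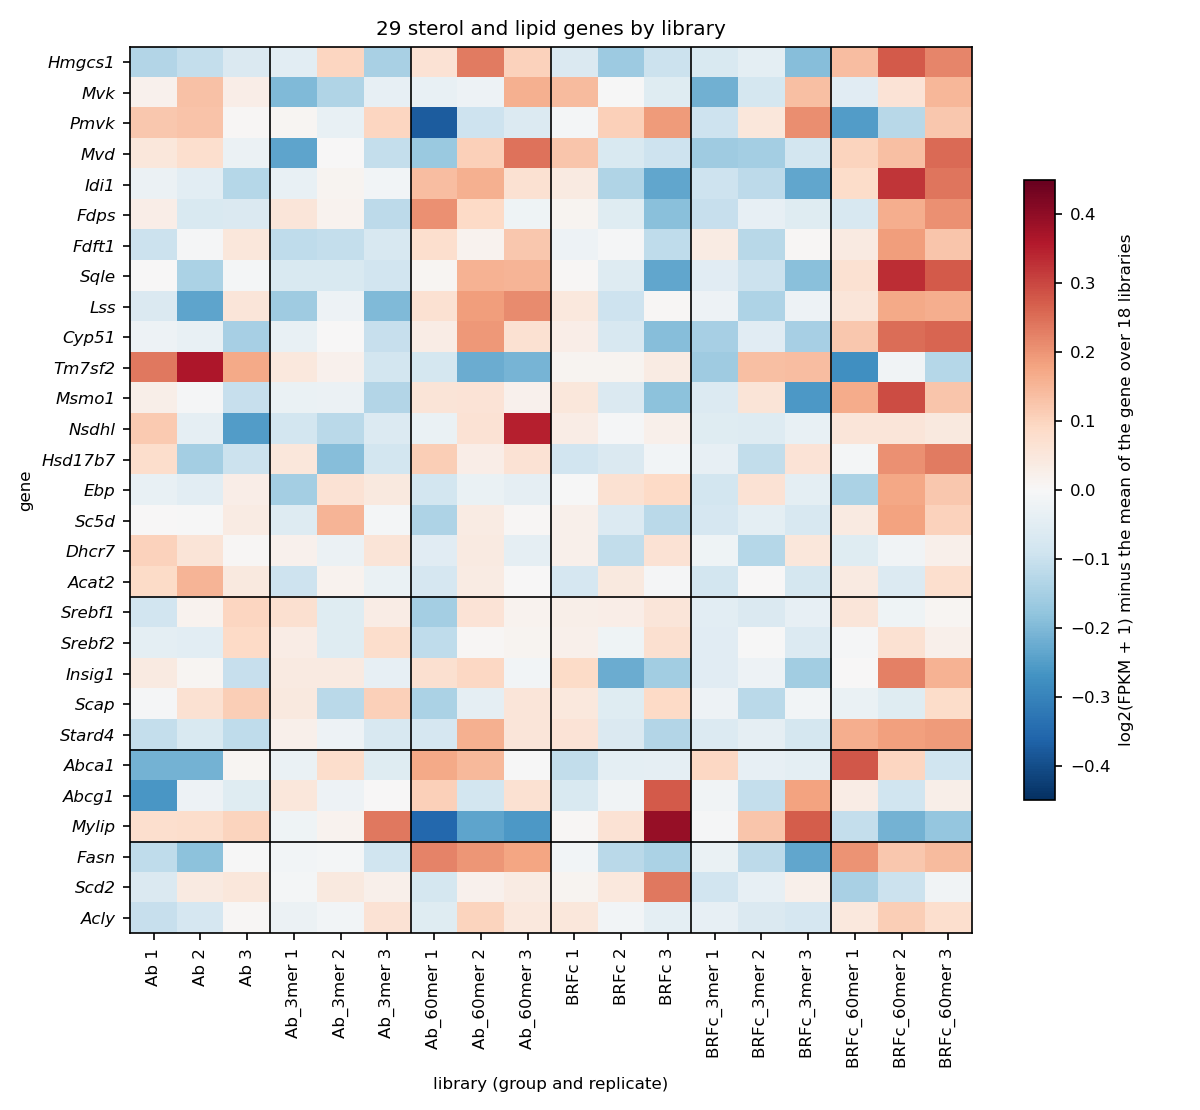
Level of each of the 29 genes (rows) in each of the 18 libraries (columns), as log2(FPKM + 1) minus the mean of the gene, with lines between groups and between roles. Many sterol synthesis genes are above their mean in the Ab_60mer and BRFc_60mer columns, while Mylip is below its mean there.

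The clearest pattern lay with the BAFF 60mer. Several sterol synthesis enzymes and Fasn were higher, by 1.18 to 1.29 times where they passed the test, while Mylip was lower. Tm7sf2 was lower in Ab_60mer than in Ab, but there the Ab libraries stood above those of every other group. Counted over the list, 5 of 29 genes passed in Ab_60mer against Ab (Fasn, Hmgcs1 and Lss higher, Tm7sf2 and Mylip lower), where 14% of all genes tested passed, 5.04% higher and 8.94% lower. In this fit the share of 5 in 29 is close to the background. With median-of-ratios rescaling it was 8 of 29 (6 higher) beside 14.1% of all genes, and with sample quality weights 9 of 29 (7 higher) beside 16.95%. The median difference was 0.073 for the 29 and -0.019 for all genes. With the library total as a term in the fit, 2 of the 5 still passed (Fasn and Tm7sf2), beside 5.36% of all genes. In Ab_60mer against Ab_3mer 3 of 29 passed (Fasn and Lss higher, Mylip lower), beside 4.81% of all genes, 1.8% higher and 3.01% lower, with medians of 0.070 and -0.003. In BRFc_60mer against BRFc 6 of 29 passed and all were higher, beside 4.83% of all genes, 1.46% higher and 3.37% lower, with medians of 0.142 and -0.021. With only those 2 groups in the fit 1 of 29 passed (Hmgcs1), beside 1.19% of all genes. In BRFc_60mer against BRFc_3mer 7 of 29 passed, all higher, beside 5.16% of all genes, 2.05% higher and 3.11% lower, with medians of 0.137 and -0.016. These comparisons share libraries, Ab_60mer in the first pair and BRFc_60mer in the second, and are not independent of each other. Idi1, Sqle, Lss, Cyp51 and Fasn were higher in the 6 libraries with the 60mer than in all 12 others, which held for 1.86% of all genes, and Mylip was lower, which held for 3.09%. An F test over the 6 groups passed for 8 of 29 (Fasn, Hmgcs1, Idi1, Cyp51, Mylip, Sqle, Stard4 and Tm7sf2), beside 8.93% of all genes.

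Hmgcs1 makes the HMG-CoA that enters the mevalonate pathway. It stood at 46.0, 46.8 and 48.2 FPKM in Ab, at 48.8, 54.1 and 45.5 in Ab_3mer and at 52.9, 59.5 and 54.4 in Ab_60mer. After mBaffR-mFc it stood at 48.2, 45.0 and 47.2 in BRFc, at 48.1, 48.9 and 44.1 in BRFc_3mer and at 55.7, 61.4 and 58.9 in BRFc_60mer. Every 60mer library was above every library without BAFF, while Ab_3mer replicate 2 reached into the range of Ab_60mer. Hmgcs1 was 1.18 times Ab in Ab_60mer (log2 difference 0.24 ± 0.062 SE, adjusted p = 0.0196, limma) and 1.253 times BRFc in BRFc_60mer (0.32 ± 0.062, adjusted p = 0.00615). It was also higher in BRFc_60mer than in BRFc_3mer (0.31 ± 0.062, adjusted p = 0.00703). The difference between Ab_60mer and Ab_3mer was 0.17 ± 0.062 and did not pass (adjusted p = 0.14). The call against Ab was lost without Ab replicate 1, Ab replicate 2 or Ab_60mer replicate 2 (adjusted p = 0.0561 to 0.0896) and with the library total as a term (0.0791), and that against BRFc_3mer without BRFc_3mer replicate 3 (0.051).

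Idi1, which isomerises the building blocks of isoprenoids, was the most abundant of the 18 enzymes. Its levels were 112, 111 and 104 FPKM in Ab, 112, 115 and 113 in Ab_3mer and 126, 128 and 119.7 in Ab_60mer. They were 118, 104 and 97.0 in BRFc, 107, 105 and 96.9 in BRFc_3mer and 121, 143 and 135 in BRFc_60mer. The 6 libraries with the 60mer were all above the 12 others, with BRFc replicate 1 closest. Idi1 rose 1.254 times from BRFc to BRFc_60mer (0.33 ± 0.067, adjusted p = 0.00867) and 1.29 times against BRFc_3mer (0.36 ± 0.067, adjusted p = 0.00391). Against Ab it was at 0.19 ± 0.067 in Ab_60mer, which did not pass (adjusted p = 0.0673). The call against BRFc was lost with only those 2 groups in the fit (adjusted p = 0.12), and without BRFc replicate 3 or BRFc_60mer replicate 2 (0.0533 to 0.0563).

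Sqle, the squalene epoxidase that commits squalene to sterols, had 22.8, 20.6 and 22.6 FPKM in Ab, 21.7, 21.7 and 21.4 in Ab_3mer and 22.9, 25.5 and 25.4 in Ab_60mer. It had 22.9, 21.8 and 19.2 in BRFc, 21.9, 21.2 and 19.9 in BRFc_3mer and 23.9, 28.9 and 27.7 in BRFc_60mer. The lowest 60mer library and the highest of the others differed only in the second decimal (22.93 against 22.88). Sqle rose from BRFc to BRFc_60mer (1.26 times, 0.32 ± 0.073, adjusted p = 0.0167) and from BRFc_3mer (1.28 times, 0.34 ± 0.073, adjusted p = 0.0124). In Ab_60mer it was at 0.16 ± 0.073 against Ab (adjusted p = 0.164). Leaving out BRFc replicate 3 or BRFc_60mer replicate 2 or 3 ended the call against BRFc (adjusted p = 0.0553 to 0.1). Leaving out BRFc_3mer replicate 3 or BRFc_60mer replicate 2 ended that against BRFc_3mer (0.0698 to 0.0714). With only the 2 groups compared in the fit neither call held (0.136 and 0.063), and with the library total as a term that against BRFc did not (0.0662).

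Lss, the cyclase that forms lanosterol from the epoxide, had the reverse pattern of calls. It had 9.67, 8.45 and 10.6 FPKM in Ab, 8.97, 9.98 and 8.71 in Ab_3mer and 10.7, 11.7 and 11.9 in Ab_60mer. It had 10.5, 9.46 and 10.2 in BRFc, 9.99, 9.12 and 9.99 in BRFc_3mer and 10.6, 11.5 and 11.5 in BRFc_60mer. Lss rose 1.20 times from Ab to Ab_60mer (0.24 ± 0.076, adjusted p = 0.0451) and 1.24 times from Ab_3mer (0.28 ± 0.076, adjusted p = 0.0411). Against BRFc the difference was 0.14 ± 0.076 (adjusted p = 0.338). Each call of Lss survived the loss of only 1 library, Ab replicate 3 in the first and Ab_3mer replicate 2 in the second. Without any of the other 5 the adjusted p was 0.0553 to 0.192 against Ab and 0.054 to 0.171 against Ab_3mer. Both calls of Lss were also lost without a filter on low values (0.0809 and 0.0791), with only the 2 groups in the fit (0.124 and 0.0969) and with the library total as a term (0.167 and 0.262).

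Cyp51, which removes a methyl group from lanosterol, stood at 64.8, 64.3 and 59.3 FPKM in Ab, at 64.3, 65.9 and 61.3 in Ab_3mer and at 67.4, 75.6 and 69.1 in Ab_60mer. It stood at 67.4, 62.6 and 57.6 in BRFc, at 59.2, 63.6 and 59.3 in BRFc_3mer and at 71.8, 78.6 and 79.1 in BRFc_60mer. The 60mer libraries were above all others by a margin as thin as that of Sqle (67.39 against 67.36). Cyp51 rose from BRFc to BRFc_60mer (1.22 times, 0.29 ± 0.061, adjusted p = 0.011) and from BRFc_3mer (1.26 times, 0.33 ± 0.061, adjusted p = 0.00453), and was at 0.17 ± 0.061 in Ab_60mer against Ab (adjusted p = 0.0757). The call against BRFc was lost with only those 2 groups in the fit (0.0937), and without BRFc replicate 3 or BRFc_60mer replicate 2 (0.0535 to 0.0697).

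Msmo1, the next methyl oxidase of the route, had 38.1, 35.0 and 32.2 FPKM in BRFc, 35.2, 38.3 and 30.5 in BRFc_3mer and 41.3, 45.3 and 40.1 in BRFc_60mer. After control antibody it had 37.5, 36.6 and 34.1 in Ab, 36.0, 36.1 and 33.5 in Ab_3mer and 38.2, 38.4 and 37.2 in Ab_60mer. The BRFc_60mer libraries were the highest, and Ab overlapped Ab_60mer. Msmo1 rose from BRFc_3mer to BRFc_60mer (0.28 ± 0.074, adjusted p = 0.0339) and missed the threshold against BRFc (0.26 ± 0.074, adjusted p = 0.0525). The call of Msmo1 was lost without BRFc_3mer replicate 1 or 3 or BRFc_60mer replicate 1 or 2 (adjusted p = 0.0585 to 0.192), without a filter (0.0711) and with only the 2 groups in the fit (0.126).

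One enzyme fell. Tm7sf2 had 9.47, 10.4 and 8.99 FPKM in Ab, 8.18, 8.02 and 7.39 in Ab_3mer and 7.43, 6.62 and 6.69 in Ab_60mer. It had 7.97, 7.96 and 8.11 in BRFc, 6.96, 8.77 and 8.79 in BRFc_3mer and 6.35, 7.78 and 7.13 in BRFc_60mer. The Ab libraries were the high ones, above all 15 others. Tm7sf2 fell by 0.43 on the log2 scale from Ab to Ab_60mer (SE 0.087, adjusted p = 0.00488), to 0.717 times the level in Ab. Its difference was -0.16 ± 0.087 in BRFc_60mer against BRFc (adjusted p = 0.344). Ab_3mer and BRFc were also below Ab without overlap, at -0.26 and -0.24, and neither passed (adjusted p = 0.881 and 0.829).

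**Figure D3:**
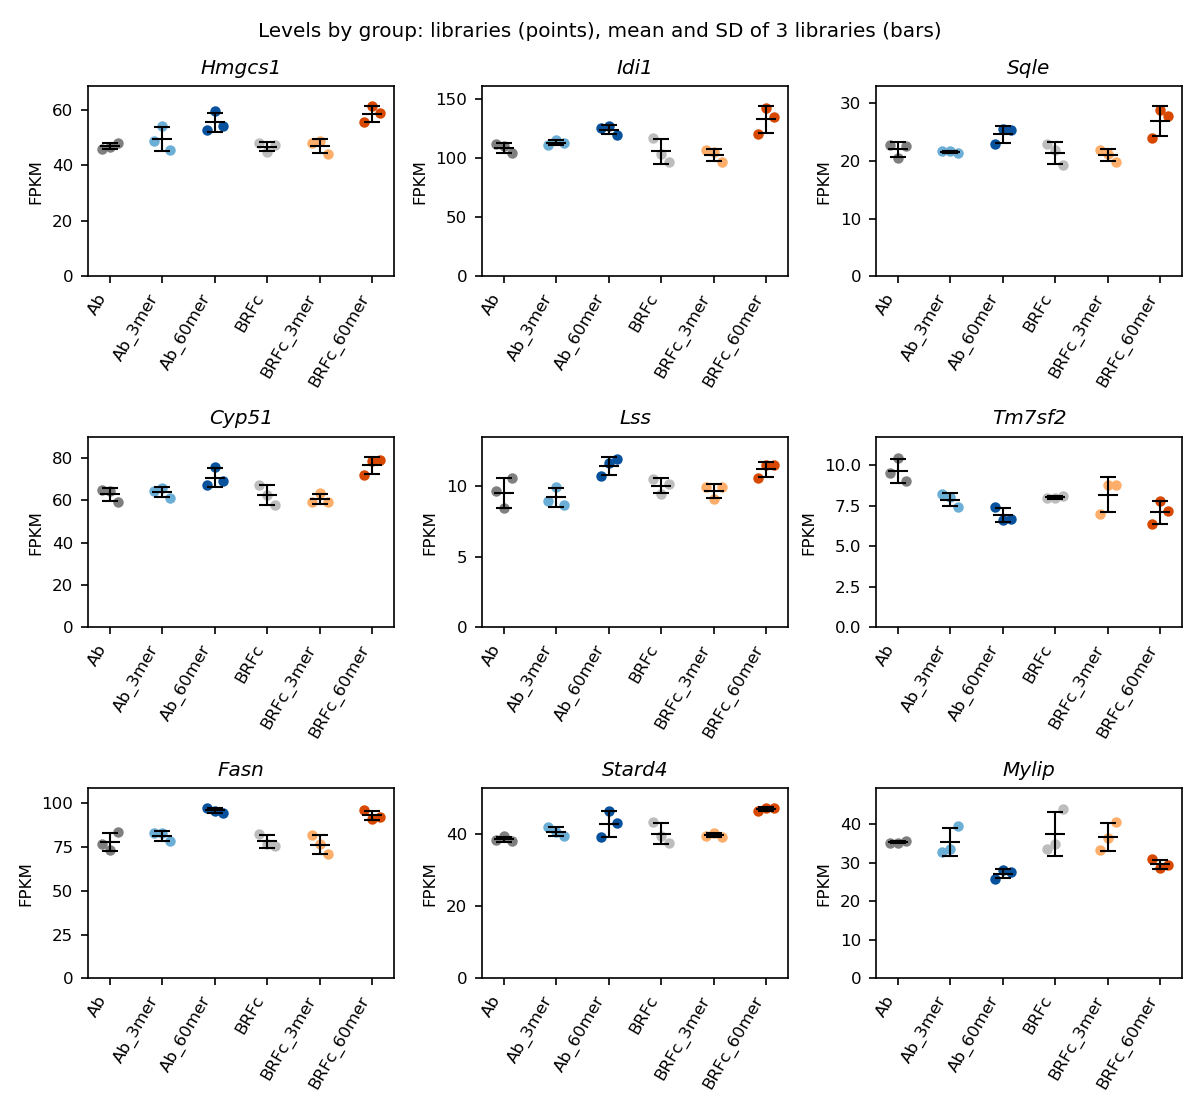
FPKM of 9 genes by group (x axis), with 1 point per library, the mean as a horizontal tick and the SD of 3 libraries as a bar; each y axis starts at 0. Idi1, Sqle, Cyp51, Lss and Fasn are higher in the 6 libraries with BAFF 60mer than in the 12 others, and Mylip is lower.

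The other 11 enzymes passed in no comparison. Among them Pmvk, a mevalonate pathway kinase, went down rather than up, with 24.4, 24.5 and 22.4 FPKM in Ab and 16.99, 20.8 and 21.4 in Ab_60mer (-0.26 ± 0.099, adjusted p = 0.086). Mvd, which follows it, was at 0.29 ± 0.091 in BRFc_60mer against BRFc_3mer (adjusted p = 0.0743). Fdft1, the squalene synthase, was at 0.17 ± 0.060 in Ab_60mer against Ab_3mer (adjusted p = 0.12). Dhcr7 and Ebp, late enzymes of the pathway, differed little between groups, with a highest group mean 1.07 and 1.08 times the lowest. 

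The levels of the 18 enzymes were also summed in each library, a sum in which the abundant Idi1 weighs most. It was 513 ± 11.95 FPKM (SD, n = 3) in Ab, 512 ± 11.95 in Ab_3mer and 549.8 ± 13.8 in Ab_60mer. After mBaffR-mFc it was 503 ± 24.4 in BRFc, 493 ± 9.22 in BRFc_3mer and 582 ± 37.4 in BRFc_60mer. The 60mer libraries ranged from 539 to 608 and the 12 others from 482 to 529.9, so the ranges did not overlap. The summed B cell markers were lower in the same 6 libraries. The 2 Ab_3mer libraries that carry connective tissue transcripts had 509 and 525, beside 482 to 529.9 in the 10 that do not. The part of the split in these sums was not tested. 

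**Figure D4:**
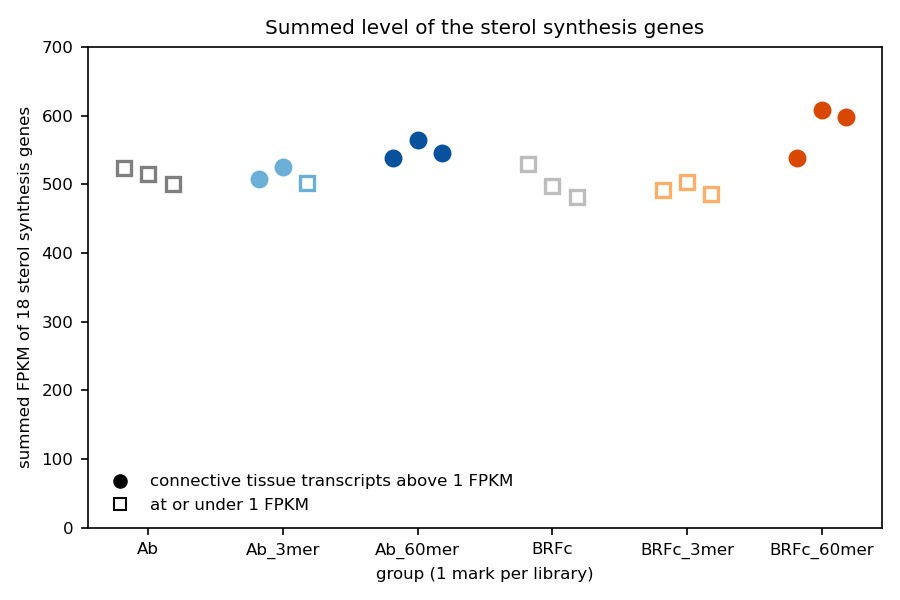
Summed FPKM of the 18 sterol synthesis genes (y axis, from 0) in each library by group, with filled circles for libraries whose connective tissue transcripts sum to over 1 FPKM and open squares for the rest. The 6 libraries with BAFF 60mer lie at 539 to 608, above the 12 others, and the 2 filled Ab_3mer libraries lie at 509 and 525.

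The genes that control SREBP passed in no comparison. Srebf2, the gene of the SREBP that mainly drives sterol synthesis, was at 92.0 ± 4.58 FPKM in Ab_60mer (SD, n = 3) against 94.0 ± 5.20 in Ab (-0.03 ± 0.049, adjusted p = 0.713), and at 95.9 ± 2.48 in BRFc_60mer against 95.6 ± 3.05 in BRFc. Srebf1 was at 55.0 ± 4.35 against 56.3 ± 3.63 (-0.03 ± 0.055, adjusted p = 0.726). Scap was at 89.1 ± 6.19 against 95.5 ± 3.85 (-0.10 ± 0.064, adjusted p = 0.31). The SEs of 0.049 to 0.064 for these genes leave small differences in either direction unresolved. Insig1, itself a target of SREBP, had 39.3, 31.5 and 33.1 FPKM in BRFc and 37.0, 43.4 and 41.3 in BRFc_60mer. The groups overlapped through BRFc replicate 1, and the difference of 0.22 ± 0.073 did not pass (adjusted p = 0.0937).

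Stard4 carries cholesterol between membranes and is also a known SREBP target. It had 43.4, 39.6 and 37.7 FPKM in BRFc, 39.7, 40.3 and 39.2 in BRFc_3mer and 46.5, 47.2 and 47.5 in BRFc_60mer. The BRFc_60mer libraries were close together and above both other groups. Stard4 rose 1.17 times against BRFc (0.22 ± 0.055, adjusted p = 0.0261) and 1.18 times against BRFc_3mer (0.24 ± 0.055, adjusted p = 0.018). In Ab_60mer it had 39.4, 46.5 and 43.1 FPKM beside 38.4, 39.5 and 38.2 in Ab and 42.1, 40.8 and 39.4 in Ab_3mer, and the difference to Ab of 0.14 ± 0.055 did not pass (adjusted p = 0.0904). The call of Stard4 against BRFc was lost without any of 5 libraries, all but BRFc replicate 1 (adjusted p = 0.0619 to 0.148), with the library total as a term (0.0753) and with only the 2 groups in the fit (0.129). That against BRFc_3mer was lost without BRFc_3mer replicate 2 or 3 or BRFc_60mer replicate 2 (0.0526 to 0.0765).

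The 3 LXR targets did not move together. Mylip had 35.1, 35.3 and 35.8 FPKM in Ab, 32.8, 33.7 and 39.5 in Ab_3mer and 25.9, 28.1 and 27.7 in Ab_60mer. It had 33.5, 34.9 and 44.0 in BRFc, 33.2, 36.5 and 40.5 in BRFc_3mer and 30.9, 28.6 and 29.4 in BRFc_60mer. All 6 libraries with the 60mer were below the 12 others. Mylip fell by 0.37 from Ab to Ab_60mer on a log2 scale (SE 0.090 and adjusted p = 0.0134) and by 0.36 from Ab_3mer to Ab_60mer (SE 0.090, adjusted p = 0.0287). The differences after mBaffR-mFc, -0.32 ± 0.090 against BRFc and -0.30 ± 0.090 against BRFc_3mer, were just outside the threshold (adjusted p = 0.0518 and 0.07). The call against Ab was lost without Ab_60mer replicate 1 (0.0619), and that against Ab_3mer without Ab_3mer replicate 3 or any 1 library of Ab_60mer (0.0547 to 0.156). With the library total as a term neither call of Mylip held (0.0952 and 0.319), and without a filter that against Ab_3mer did not (0.0734). Abca1, the pump that loads cholesterol onto apolipoproteins, had 52.3, 52.3 and 61.2 FPKM in Ab and 68.5, 67.3 and 60.8 in Ab_60mer. That difference of 0.24 ± 0.081 pointed the other way and did not pass (adjusted p = 0.0546). Abcg1, a second pump, was at 0.14 ± 0.095 in the same comparison (adjusted p = 0.336).

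Of the fatty acid genes, Fasn, the synthase that builds palmitate, was higher in every 60mer library than in any other. It had 76.7, 73.0 and 83.1 FPKM in Ab, 82.5, 82.6 and 78.0 in Ab_3mer and 97.2, 95.5 and 94.1 in Ab_60mer. It had 82.4, 76.3 and 75.2 in BRFc, 81.4, 76.6 and 70.6 in BRFc_3mer and 95.9, 90.6 and 91.9 in BRFc_60mer. Fasn was the only one of the 29 to pass in all 4 comparisons of the 60mer. It rose 1.23 times against Ab (0.30 ± 0.055, adjusted p = 0.00261) and 1.18 times against Ab_3mer (0.24 ± 0.055, adjusted p = 0.0203). After mBaffR-mFc it rose 1.19 times against BRFc (0.25 ± 0.055, adjusted p = 0.0146) and 1.22 times against BRFc_3mer (0.28 ± 0.055, adjusted p = 0.0064). Against Ab_3mer the call was lost without Ab_3mer replicate 3, Ab_60mer replicate 1 or Ab_60mer replicate 2 (adjusted p = 0.0593 to 0.105). Against BRFc it was lost without BRFc replicate 2, BRFc replicate 3 or BRFc_60mer replicate 1 (0.0646 to 0.0744), and with only the 2 groups in the fit (0.0726). With the library total as a term the calls of Fasn against Ab_3mer (0.281) and against BRFc (0.0772) were lost. In the 60mer libraries the summed adipocyte markers were higher, as in 2 of Ab_3mer, and the summed B cell markers lower, and their part in these differences was not tested. The carrying Ab_3mer libraries had 82.5 and 82.6 FPKM of Fasn. The 10 libraries without connective tissue transcripts ranged from 70.6 to 83.1, so both lay near the top of that range. Acly and Scd2, a desaturase, passed in no comparison. Acly was at 0.14 ± 0.045 in BRFc_60mer against BRFc_3mer (adjusted p = 0.0918), and Scd2 at -0.19 ± 0.061 in BRFc_60mer against BRFc (adjusted p = 0.0978).

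**Figure D5:**
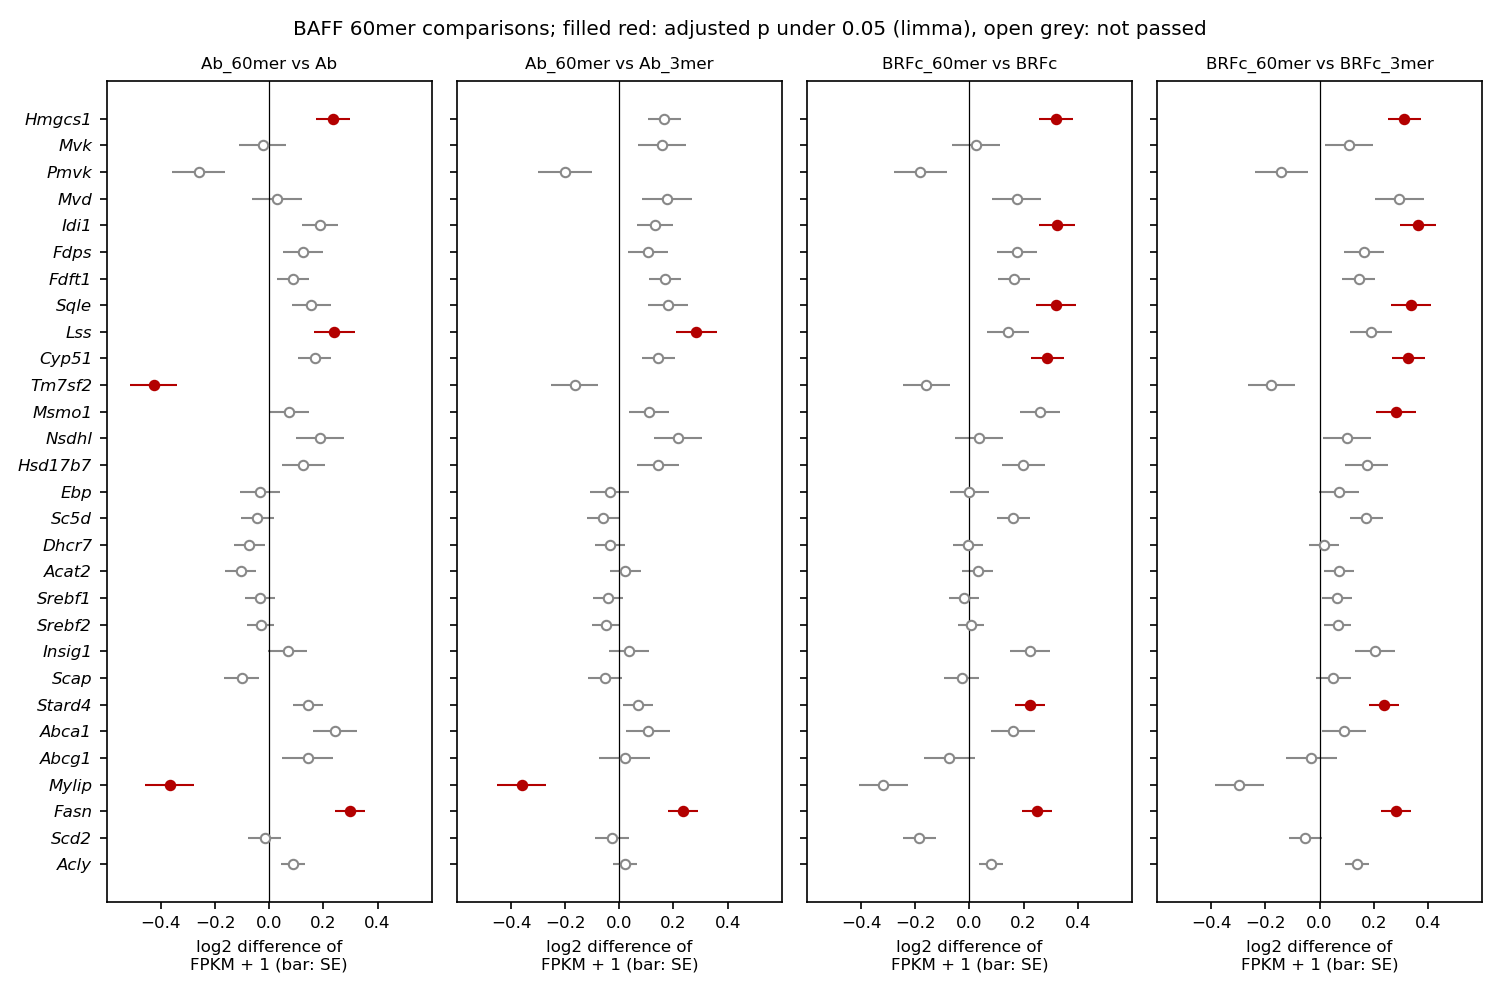
Log2 difference of FPKM + 1 (x axis, with bars of 1 SE) for each of the 29 genes (rows) in the 4 comparisons of BAFF 60mer, filled where the adjusted p was under 0.05. Fasn is filled in all 4 panels, Hmgcs1 in 3 and Tm7sf2 in 1.

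One comparison of the 60mer can be made inside the 8 libraries with connective tissue transcripts, that of Ab_60mer with Ab_3mer replicates 1 and 2. Fitted on those 8 libraries, it had 0 of 29 genes past the threshold, beside 0.996% of all genes. At an unadjusted p under 0.05 (limma) it had 4 of 29, beside 1527 of 11646 genes. The 3 genes that passed in the full comparison kept their direction at somewhat smaller sizes: Fasn was at 0.21 ± 0.045 (adjusted p = 0.0727), Mylip at -0.28 ± 0.060 (adjusted p = 0.0686) and Lss at 0.25 ± 0.081 (adjusted p = 0.23). Hmgcs1 was at 0.11 ± 0.070 there (adjusted p = 0.566). The median of the 29 was 0.050, and that of all genes -0.002.

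No difference between the BAFF 3mer and no BAFF passed. In Ab_3mer against Ab 0 of 29 passed, beside 0% of all genes, with medians of 0.003 and -0.015. An unadjusted p under 0.05 (limma) was reached by 2 of 29, beside 632 of 11646 genes. In BRFc_3mer against BRFc 0 of 29 passed, beside 0% of all genes, with medians of -0.039 and -0.011. There 1 of 29 reached an unadjusted p under 0.05, beside 388 of 11646 genes. The differences of the 29 ran from -0.26 (Tm7sf2) to 0.14 in the first and from -0.13 (Scd2) to 0.07 in the second. Where the 3mer and the 60mer were set against each other at the same dose and time, the differences are those given above.

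No difference between the pretreatments passed either. In BRFc against Ab and in BRFc_3mer against Ab_3mer 0 passed, beside 0% of all genes in each. In the first, 1 of 29 (Tm7sf2) reached an unadjusted p under 0.05 (limma), beside 688 of 11646 genes. In the second it was 0 of 29, beside 452 of 11646 genes. In BRFc_60mer against Ab_60mer 0 passed, beside 0.0258% of all genes. There 2 of 29 reached an unadjusted p under 0.05, beside 540 of 11646 genes. They were Stard4 at 0.13 ± 0.055 and Sc5d at 0.14 ± 0.061, both with adjusted p = 0.993 (limma). In BRFc_60mer against Ab_60mer 23 of the 29 differences were positive, with a median of 0.047. For all genes the median was -0.004, with quartiles of -0.058 and 0.05, so the median of the 29 lay inside them. The 29 were measured in the same libraries, so their signs are not independent of each other.

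Calls fell on partly different genes after the 2 pretreatments, but the difference in response to the 60mer was itself tested. It passed for 0 of 29 (limma interaction), beside 0.00859% of all genes. An unadjusted p under 0.05 was reached by 2 of 29, beside 640 of 11646 genes. The extra difference after mBaffR-mFc was 0.14 ± 0.094 for Idi1, 0.16 ± 0.103 for Sqle, 0.12 ± 0.087 for Cyp51 and -0.10 ± 0.108 for Lss (adjusted p from 0.922 to 0.941). It was 0.27 ± 0.123 for Tm7sf2 and 0.21 ± 0.086 for Sc5d, the lathosterol desaturase, both with adjusted p = 0.901. For the 3mer the interaction passed for 0 of 29, beside 0% of all genes. It reached an unadjusted p under 0.05 (limma) for 1 of 29, beside 560 of 11646 genes. A p that misses the threshold does not show that the responses were alike.

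Related genes outside the 29 were taken as 4 lists of 40 genes, of which 36 were abundant enough to test. Of 12 tested genes among other SREBP targets and fatty acid synthesis, Acaca and Aacs rose in Ab_60mer against Ab, Acaca in Ab_60mer against Ab_3mer, and Acaca, Aacs and Slc25a1 in BRFc_60mer against BRFc_3mer. Of all genes tested, 5.04%, 1.8% and 2.05% rose in these comparisons, in that order. Acaca makes the malonyl-CoA that Fasn uses. It had 31.2, 30.1 and 35.0 FPKM in Ab, 35.2, 33.6 and 31.7 in Ab_3mer and 42.9, 40.9 and 41.4 in Ab_60mer. After mBaffR-mFc it had 35.0, 34.4 and 32.8 in BRFc, 35.4, 29.6 and 31.4 in BRFc_3mer and 39.9, 36.6 and 37.7 in BRFc_60mer. The 60mer libraries were again above all others, and the difference was 0.37 ± 0.065 against Ab (adjusted p = 0.00179) and 0.31 ± 0.065 against Ab_3mer (adjusted p = 0.0105). Within the libraries with connective tissue transcripts Acaca was at 0.27 ± 0.056 (adjusted p = 0.0615). Its call against Ab_3mer was lost without Ab_3mer replicate 3 or Ab_60mer replicate 1 (0.0524 to 0.0648), and that against BRFc_3mer without any 1 library of the 2 groups but BRFc_3mer replicate 1 (0.0669 to 0.192). The first was also lost with the library total as a term (0.177), and the second without a filter (0.0752) and with only the 2 groups in the fit (0.121).

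Aacs, which activates acetoacetate for lipid synthesis, had 36.4, 38.3 and 33.3 FPKM in Ab, 37.5, 35.7 and 36.1 in Ab_3mer and 38.9, 43.0 and 42.4 in Ab_60mer. It had 38.8, 35.9 and 36.6 in BRFc, 36.2, 35.0 and 36.0 in BRFc_3mer and 40.6, 40.3 and 42.7 in BRFc_60mer, again with the 60mer libraries on top. Slc25a1, the mitochondrial citrate carrier, had 67.6, 70.0 and 73.2 FPKM in Ab, 70.8, 65.1 and 68.9 in Ab_3mer and 65.9, 70.8 and 69.7 in Ab_60mer, which overlap. It had 68.4, 67.2 and 67.1 in BRFc, 65.1, 64.3 and 60.0 in BRFc_3mer and 70.5, 69.9 and 78.8 in BRFc_60mer. Aacs rose by 0.20 ± 0.053 against Ab (adjusted p = 0.0205), and Slc25a1 by 0.21 ± 0.051 against BRFc_3mer (adjusted p = 0.0262). The call of Aacs was lost without Ab replicate 3 or Ab_60mer replicate 2 or 3 (0.0542 to 0.0885), and that of Slc25a1 without BRFc_3mer replicate 2 or 3 or BRFc_60mer replicate 3 (0.0642 to 0.148), and both with only the 2 groups in the fit (0.0912 and 0.115). Aacs also rose against BRFc_3mer, by 0.20 ± 0.053 (adjusted p = 0.0356), a call lost without any 1 of the 6 libraries (0.0618 to 0.13), without a filter (0.0523) and with only the 2 groups in the fit (0.0682).

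Of 10 genes of LXR, its other targets and sterol transport, Nr1h2 and Rxrb, which encode an LXR and a partner receptor, fell in Ab_60mer against Ab. Of all genes tested, 8.94% fell in that comparison. Nr1h2 had 132, 124 and 129 FPKM in Ab, 117, 104 and 129.98 in Ab_3mer and 86.6, 98.6 and 104 in Ab_60mer. It had 110.4, 115 and 126 in BRFc, 109, 117 and 125 in BRFc_3mer and 96.4, 92.7 and 114 in BRFc_60mer. Rxrb had 88.9, 87.5 and 94.5 FPKM in Ab, 84.0, 74.3 and 95.1 in Ab_3mer and 69.1, 71.7 and 76.2 in Ab_60mer. It had 81.4, 79.4 and 95.2 in BRFc, 81.6, 77.3 and 87.6 in BRFc_3mer and 71.9, 73.8 and 83.2 in BRFc_60mer. Both genes were lower in Ab_60mer than in Ab without overlap, while BRFc_60mer overlapped BRFc. Nr1h2 fell by 0.41 in log2 units (SE 0.088 and adjusted p = 0.00611), and Rxrb fell by 0.32 (SE 0.085, adjusted p = 0.0213). The call of Rxrb was lost without Ab replicate 1 or 3 or Ab_60mer replicate 1 or 2 (0.0556 to 0.088), without a filter (0.0516) and with the library total as a term (0.148).

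Of 8 tested genes of the oxysterol and isoprenoid branches, 1 fell in Ab_60mer against Ab, where 8.94% of all genes fell. It was Coq2, an enzyme of ubiquinone synthesis, which fell by 0.25 (SE 0.042, adjusted p = 0.00123, limma). It had 77.7, 73.3 and 77.4 FPKM in Ab, 63.4, 69.5 and 65.5 in Ab_3mer and 62.9, 64.6 and 64.1 in Ab_60mer. It had 71.5, 70.2 and 72.6 in BRFc, 69.2, 69.5 and 72.4 in BRFc_3mer and 65.1, 64.5 and 69.3 in BRFc_60mer. The Ab libraries were the high ones, above all 15 others. Ab_3mer was below Ab by nearly as much, at -0.20 ± 0.042, and BRFc at -0.09 ± 0.042, and neither passed (adjusted p = 0.436 and 0.831). Ab_60mer overlapped Ab_3mer, at -0.05 ± 0.042 (adjusted p = 0.554). None of the 6 genes of SREBP processing, which include the proteases Mbtps1 and Mbtps2, passed in any of the 4 comparisons of the 60mer. Over the 36 genes, 2 rose and 3 fell in Ab_60mer against Ab, beside 5.04% and 8.94% of all genes, which is close to the background. Their median there was 0.009, beside -0.019 for all genes. In BRFc_60mer against BRFc 0 of 36 passed, beside 4.83% of all genes. There 9 of 36 reached an unadjusted p under 0.05 (limma), beside 2179 of 11646 genes.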

How the data were processed

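The authors deposited FPKM values, which per the labels' protocols a sequencing company computed. The aligner, counting tool and genome build are not given in the sources used here. Symbols and positions came from GENCODE M21 (GRCm38), which named 34490 of 35275 gene IDs. Depth was recovered from steps between low values of single-transcript genes: 92.0% to 93.6% of those under 0.6 fragments per M came out whole to within 0.1, so a single fragment per kilobase corresponds to 0.0394 to 0.0818 FPKM. Differences were tested on log2(FPKM + 1), which understates the change of low genes, by a moderated limma fit (version 3.58.1, R 4.3.3) of all 6 groups that let the variance trend with the level. A minimum mean of 1 FPKM left 11646 genes. P-values were adjusted by Benjamini-Hochberg over these genes within each of 9 comparisons of 2 groups, 2 interactions and an F test, and a gene passed under 0.05. Full values are given for members that passed, and for related genes that passed, up to 4 of a list in a comparison. The members and lists were chosen with earlier results of these data known. A further B cell marker of the list is not reported here. The steps were tested on simulated data. The fit was repeated with a pseudocount of 0.1, without a filter, with a minimum of 5 FPKM, with median-of-ratios rescaling, sample quality weights or the library total as a term, on only the groups compared, without each library in turn, and on only libraries with or without connective tissue transcripts. Promoter windows were searched in Python 3.11.15 and figures drawn with matplotlib 3.10.9.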

Additional observations from a re-analysis of the deposited data

How the results depend on the processing

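Of the 21 calls of single genes among the 29, 6 passed under every alternative run: Fasn and Tm7sf2 in Ab_60mer against Ab, Hmgcs1 in BRFc_60mer against BRFc, and Idi1, Cyp51 and Fasn in BRFc_60mer against BRFc_3mer. All 6 lie in comparisons wholly across the split in connective tissue transcripts, where no fit inside the carrying libraries was possible. The calls of Ab_60mer against Ab_3mer, which had such a fit, did not pass in it. No call changed direction, and of 276 fits of these calls under an alternative 71 no longer passed. The number of the 29 that passed in Ab_60mer against Ab was 5. It was 8 with median-of-ratios rescaling (6 higher, beside 14.1% of all genes), 9 with quality weights (7 higher, beside 16.95%) and 2 with the library total as a term (beside 5.36%). When 1 library was left out it was 3 to 6, beside 6.49% to 14.32% of all genes. It was 3 without Ab replicate 1, Ab replicate 2 or Ab_60mer replicate 2. In Ab_60mer against Ab_3mer it was 3, but 1 without a filter (beside 1.69% of all genes) and 0 with the library total (beside 1.43%). In libraries with connective tissue transcripts it was 0 (beside 0.996%). When 1 library was left out it was 0 to 4, beside 2.11% to 4.04% of all genes. It was 0 without Ab_3mer replicate 3, Ab_60mer replicate 1 or replicate 2 and 1 without Ab_60mer replicate 3. In BRFc_60mer against BRFc it was 6, but 11 with quality weights (10 higher, beside 11.9% of all genes) and 3 with the library total (beside 2.34%). When only the 2 groups entered the fit it was 1 (beside 1.19%). When 1 library was left out it was 1 to 9, beside 2.08% to 6.28% of all genes. It was 1 without BRFc replicate 3 and 2 without BRFc_60mer replicate 2. In BRFc_60mer against BRFc_3mer it was 7, but 15 with quality weights (14 higher, beside 11.3% of all genes). When 1 library was left out it was 3 to 7, beside 2.0% to 4.66% of all genes. It was 3 without BRFc_3mer replicate 3 and 4 without BRFc_60mer replicate 2. The F test passed for 8 (beside 8.93% of all genes), 14 with quality weights (beside 16.68%) and 4 with the library total (beside 4.34%). The cause of these changes was not tested. With median-of-ratios rescaling, the split of all calls in Ab_60mer against Ab moved from 587 higher and 1041 lower to 786 and 856, and in BRFc_60mer against BRFc from 170 and 393 to 230 and 288. The counts of 0 in the comparisons of the 3mer, of the pretreatments and in the interactions stayed at 0 under every alternative run. No fit paired the libraries, because the labels give no replicate numbers. Some levels went with the order of deposition. The summed macrophage markers were lowest in replicate 3 of every group but BRFc_60mer. The summed B cell markers were lowest in replicate 1 of every group but Ab_3mer. A fit with the replicate number as a term was not run, so its effect on the calls was not tested.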
